A study of Homo sapiens with 6 samples.

Results

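The genes described here are 32 genes of the ATF4 and amino acid stress response, out of the 58288 gene identifiers counted in T24, a cell line from human bladder cancer. They were taken as a named list: ATF4 itself, the transcription factors that act with it, its target genes, and the enzymes and transporters of amino acid supply that it controls. The list was made by gene name and known function, with no threshold on measured values. All 32 passed the filter on low counts and were tested among 14415 genes. They comprise 7 factors, 7 feedback and signalling genes, 11 enzymes of amino acid synthesis and one-carbon metabolism, and 7 amino acid transporters.

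The cells carried 1 of 3 transient transfections: a control siRNA (NC), si-circ235-1 or si-circ235-2. Both targeting siRNAs were directed at the back-splice site of circ235, a circular RNA made from exons of CCNY, and were delivered in the study with Lipofectamine. Each condition had 2 libraries, labelled as biological replicates of the same line. The labels list no other treatment of the cells and give no time between transfection and harvest. The comparisons ask how far each siRNA moved the mRNA levels of this response from NC, and whether both siRNAs did so alike.

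ATF4 is the effector of the integrated stress response. Kinases that sense amino acid shortage, unfolded protein, double-stranded RNA or heme phosphorylate the initiation factor eIF2, which lowers general translation while ATF4 protein is made from an mRNA with upstream reading frames. ATF4 then binds, with C/EBP partners, to composite elements near genes for amino acid synthesis, uptake and tRNA charging, and to genes that limit the response, such as TRIB3 and PPP1R15A. Much of the control of ATF4 is therefore exerted on its translation, which mRNA counts do not measure.

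The libraries held 15373992 to 19912893 counts each. RNA was enriched with oligo dT, so circ235, which has no poly(A) tail, was not measured, and its knockdown could not be checked in these libraries. The counts of CCNY come from its linear mRNA and check nothing of the circle (log2 fold change against NC 0.20 under si-circ235-1 and -0.08 under si-circ235-2, neither called). Epithelial keratins summed to 3055 to 5563 CPM (counts scaled to a common library size) per library, although KRT19 was near 0. The urothelial differentiation markers summed to 24.3 to 52.5 CPM, nearly all of it PPARG, and UPK3A was at 0. PPARG was called higher under both siRNAs, and KRT7 was called lower under si-circ235-2. The mesenchymal markers VIM, ZEB1 and FN1 summed to 622 to 1544 CPM. FN1 was called higher under si-circ235-2 (mean 116 CPM, against 44.4 CPM in NC), where VIM and ZEB1 were not called against NC. Between the siRNAs 1 of these 3 markers was called higher and 1 lower. Leukocyte markers summed to at most 0.183 CPM, endothelial markers to at most 2.29 CPM, and both erythroid markers were at 0 in every library. The part of these markers in the results was not tested. In such bulk libraries, a lower mRNA level cannot be told apart from fewer cells that hold the mRNA.

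Between them the siRNAs did not move the list in 1 direction. Against NC, si-circ235-1 raised 1 member (GPT2) and lowered 3 (CHAC1, PYCR1 and ALDH18A1). A call stands for an adjusted p under 0.05 (edgeR's quasi-likelihood test, Benjamini-Hochberg). Over all genes tested, 2.24% were called higher and 3.64% lower in that comparison. Under si-circ235-2, 4 members rose (SLC7A1, ASNS, VLDLR and SLC38A1) and 6 fell (NUPR1, EIF4EBP1, CHAC1, JDP2, PHGDH and SLC3A2). The share over all genes was 15.7% higher and 15.7% lower. With the siRNAs set against each other, 7 members were higher under si-circ235-2 and 8 were lower, where 21.1% of all genes were called higher and 18.6% lower. CHAC1 was called in the same direction under both siRNAs. Without si-circ235-1 replicate 2 edgeR called 0 of all 15037 genes then tested under si-circ235-1 (2110 at an unadjusted p under 0.05), so that each call of that comparison given here, member or not, was lost there. Without NC replicate 1 it called 0 members under si-circ235-1 (11 at an unadjusted p under 0.05) and 3 under si-circ235-2, where 769 of all 15080 genes were called. Both comparisons with NC share the 2 NC libraries, so their values are given side by side and not as independent observations.

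The median log2 fold change of the 32 members was 0.19 for si-circ235-1 against NC, 0.12 for si-circ235-2 against NC and -0.12 for si-circ235-2 against si-circ235-1. Over all genes tested the medians were -0.03, -0.00 and 0.04. Of the members, 18 lay above 0 and 14 below for si-circ235-1, and 17 lay above and 15 below for si-circ235-2. An unadjusted p under 0.05 was reached by 15 members in the first comparison, 14 in the second and 18 between the siRNAs. Of all 14415 genes tested, 3644, 6212 and 7056 reached it in these comparisons. Summed over the list, the members took 6951 and 6205 CPM in NC, 6869 and 6257 CPM under si-circ235-1, and 6404 and 6302 CPM under si-circ235-2. The 3 ranges overlap, so the summed level of the list did not separate the conditions while single members did.

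**Figure D1:**
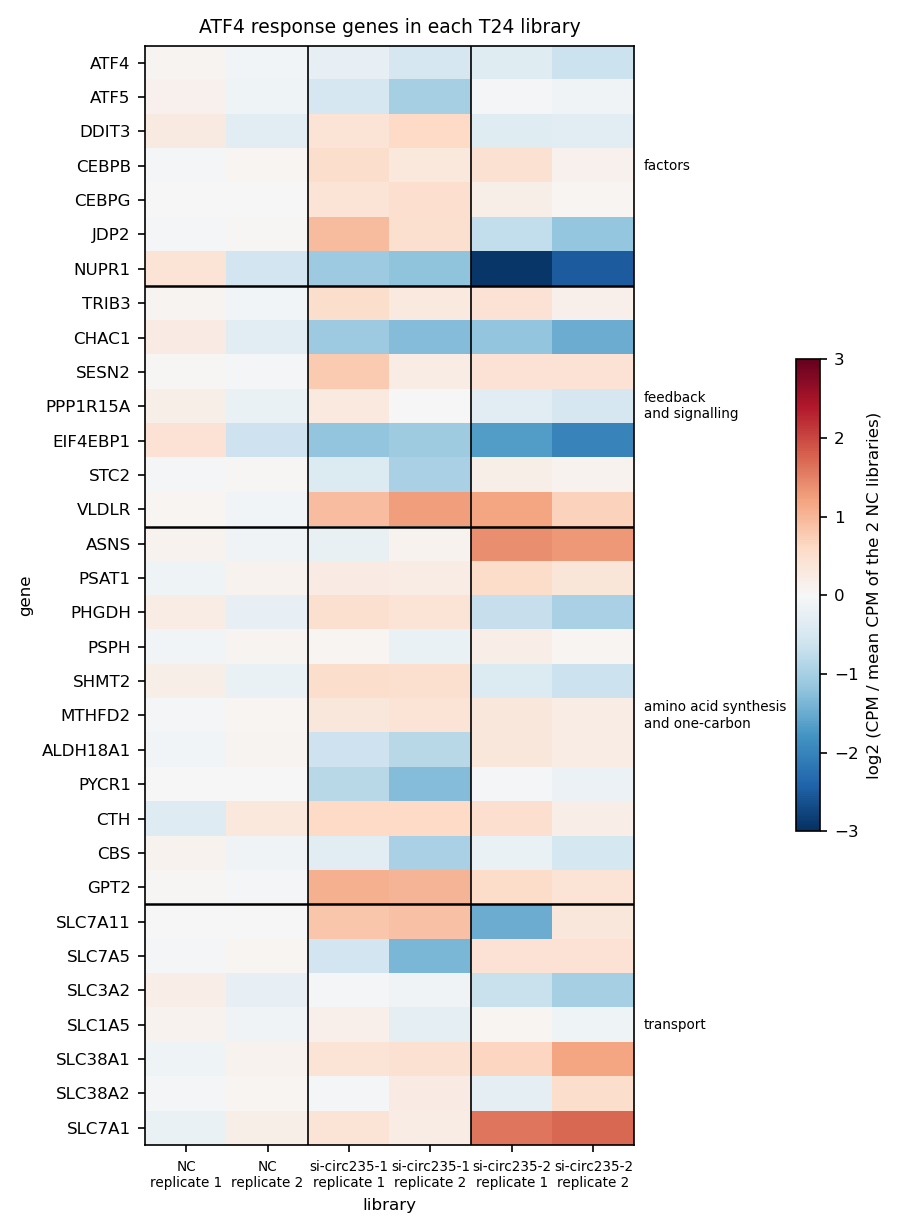
Log2 ratio of each gene's CPM in each library to its mean CPM in the 2 NC libraries, with genes in rows by role and the 6 T24 libraries in columns; blue is below NC and red above. NUPR1, EIF4EBP1 and CHAC1 are blue in all 4 siRNA libraries, SLC7A1 and ASNS are red in both si-circ235-2 libraries, and SLC7A11 differs in colour between the 2 si-circ235-2 libraries.

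The splits of calls depended on how libraries were scaled. Unscaled by TMM, all genes together had a median log2 fold change of -0.11 for si-circ235-1, 0.25 for si-circ235-2 and 0.37 between the siRNAs, and the members called became 9 higher with 5 lower for si-circ235-2 against NC and 9 higher with 4 lower between the siRNAs. Of all 14415 genes, 3173 were then called higher and 1294 lower for si-circ235-2 against NC, and 4534 and 1496 between the siRNAs. Fold changes also followed transcript length and base composition. Across 14386 genes of the same libraries, which are not independent replicates, Spearman's rho between log2 fold change and the length of the longest transcript was 0.44 for si-circ235-2 against NC and 0.04 for si-circ235-1, and rho with GC content was -0.22 and -0.26. The 4 members called higher under si-circ235-2 had longest transcripts of 2356 to 9163 bases and 41.3 to 52.7% GC, and the 6 called lower had 1020 to 5491 bases and 50.3 to 65.5% GC. When a smooth trend over both properties was subtracted in each library (the length and GC correction), si-circ235-1 had 7 members called higher and 5 lower, si-circ235-2 had 6 of each, and between the siRNAs 6 were higher and 10 lower. The calls over the 14386 genes so corrected were 1189 higher and 778 lower, 1613 and 2111, and 2469 and 3343.

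**Figure D2:**
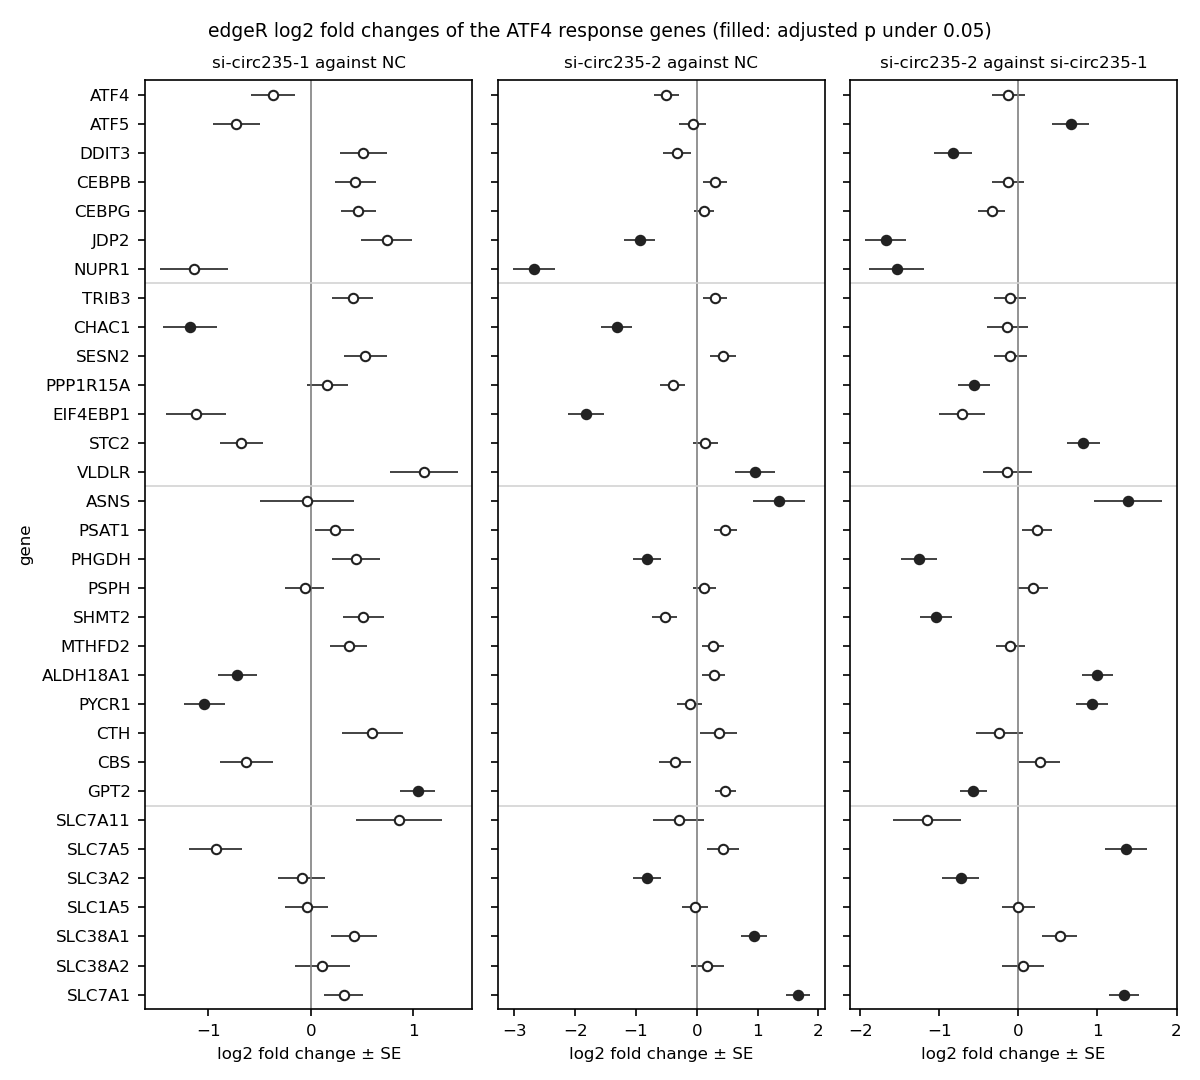
Log2 fold change of each of the 32 genes, with its standard error as a bar, in the 3 comparisons (edgeR, 2 libraries per condition); filled points are called at an adjusted p under 0.05. Filled points number 4, 10 and 15 from left to right, and lie on both sides of 0 in every panel.

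Of the 7 factors, JDP2 and NUPR1 were called against NC, both of them lower under si-circ235-2, and ATF4 was called in no comparison. ATF4 is encoded on chromosome 22 (GRCh38, 39519695 to 39522685, plus strand). Its level was 762 and 674 CPM in NC, 604 and 503 CPM in si-circ235-1, and 557 and 456 CPM in si-circ235-2. Every siRNA library was below both NC libraries, and the siRNAs overlapped with each other. The log2 fold change was -0.37 ± 0.21 (SE, n = 2 per condition, edgeR adjusted p = 0.299) for si-circ235-1 and -0.50 ± 0.21 (edgeR adjusted p = 0.0932) for si-circ235-2, so neither passed the test. DESeq2 (adjusted p = 0.0411) called the lower ATF4 under si-circ235-2, and under the length and GC correction the value was -0.15 (edgeR adjusted p = 0.431).

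NUPR1, a small stress-induced chromatin protein, had the largest fall of the list. It was at 21.3 and 10.9 CPM in NC, 7.62 and 6.98 CPM in si-circ235-1, and 2.12 and 2.87 CPM in si-circ235-2. The 3 conditions did not overlap, although the NC libraries themselves were far apart. Against NC, NUPR1 reached 15.6% of its level under si-circ235-2 (log2 fold change -2.68 ± 0.35, edgeR adjusted p = 0.00179), and 45.4% under si-circ235-1 (-1.14 ± 0.33, edgeR adjusted p = 0.0657), which missed the threshold. The latter was called by DESeq2 (adjusted p = 0.0376), with every counted gene kept (edgeR adjusted p = 0.00484), in the 2 conditions alone (0.00862) and without either si-circ235-2 library (0.0162 and 0.014). It also differed between the siRNAs, being lower under si-circ235-2 (-1.54 ± 0.35, edgeR adjusted p = 0.00635). Both calls of NUPR1 held under every one of the 13 alternatives run, libraries left out included, with values of -3.24 to -2.13 against NC.

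JDP2 is a bZIP repressor that ATF4 induces. Its level was 16.9 and 17.9 CPM in NC, 33.6 and 24.4 CPM in si-circ235-1, and 10.4 and 7.79 CPM in si-circ235-2. The si-circ235-1 libraries were both above NC and the si-circ235-2 libraries both below. JDP2 fell under si-circ235-2 (log2 fold change -0.94 ± 0.26, edgeR adjusted p = 0.0193), whereas the value for si-circ235-1 was 0.74 ± 0.25 (edgeR adjusted p = 0.101), called in the 2 conditions alone (0.0312), without either si-circ235-2 library (0.0474 and 0.0431) and under the length and GC correction (0.84, 0.0256). Between the siRNAs JDP2 differed 3.19-fold (-1.68 ± 0.26, edgeR adjusted p = 0.00108), a call that held under all 13 alternatives. The call against NC was lost without NC replicate 1 (-0.99, edgeR adjusted p = 0.0932), without NC replicate 2 (-0.88, 0.0678), with si-circ235-2 replicate 2 left out (-0.74, 0.0761) and without TMM factors (-0.69, 0.0794).

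DDIT3 encodes CHOP, the factor linked to cell death under lasting stress. It was at 34.1 and 22.6 CPM in NC, 37.4 and 43.1 CPM in si-circ235-1, and 22.2 and 22.9 CPM in si-circ235-2. The NC libraries spanned most of that range, and neither siRNA was called against NC, with log2 fold changes of 0.51 ± 0.23 (edgeR adjusted p = 0.205) and -0.33 ± 0.23 (edgeR adjusted p = 0.313). Set against si-circ235-1, si-circ235-2 had less DDIT3 (-0.83 ± 0.24, edgeR adjusted p = 0.0168). That difference was not called without si-circ235-1 replicate 2 (-0.73, edgeR adjusted p = 0.108) or without TMM factors (-0.50, 0.108). DDIT3 overlaps MARS1 and MBD6 on the opposite strand. MARS1 held 32040 counts over the libraries against 3051 for DDIT3, and whether the counting used strand is not given in the sources used here.

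ATF5, a close relative of ATF4, was at 35.5 and 29.9 CPM in NC, 22.9 and 16.5 CPM in si-circ235-1, and 32 and 30.3 CPM in si-circ235-2. Only the si-circ235-1 libraries stood apart, below the rest. The difference between the siRNAs was called (log2 fold change 0.66 ± 0.23, edgeR adjusted p = 0.0381), and the fall under si-circ235-1 against NC was not (-0.73 ± 0.23, edgeR adjusted p = 0.0789). That fall was called by DESeq2 (adjusted p = 0.048), in the 2 conditions alone (edgeR adjusted p = 0.0365) and without either si-circ235-2 library (0.0457 and 0.0403). The difference between the siRNAs was not called without either NC library (edgeR adjusted p = 0.0528 and 0.0589), without si-circ235-1 replicate 2 (0.44, 0.25) or without either si-circ235-2 library (0.0869 and 0.0506). ATF5 overlaps NUP62 on the opposite strand, which held 13290 counts against its 2830. The other factors, CEBPB and CEBPG, the C/EBP partners, were called in no comparison, with log2 fold changes of 0.43 and 0.46 under si-circ235-1 and 0.30 and 0.12 under si-circ235-2. Under the length and GC correction CEBPB was called higher with both siRNAs (0.67, edgeR adjusted p = 0.045, and 1.10, 0.00578), and CEBPG was called lower in si-circ235-2 against si-circ235-1 (-0.77, 0.00245).

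The composite element that ATF4 binds with a C/EBP partner was looked for by its letters. The motif searched was TGATGNAAN on either strand, in the RefSeq windows from 250 bases before to 50 bases after a gene's start (GRCh38.p14). A window existed for 25 of the 32 members, and 8 of these genes held the letters, against 4.45% of all 27305 genes and 3.61% of all 35116 windows. In 5 members the letters lay before the start. These 5 are printed because they are the stretches of the list where the known ATF4 element can be read, each 30 bases on the strand of the gene, 5′ to 3′, with the matching letters in capitals. A match describes the sequence and does not show binding.

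JDP2: tatatagccggggcTGATGCAACccgtccc
ASNS: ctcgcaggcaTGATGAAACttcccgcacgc
CHAC1: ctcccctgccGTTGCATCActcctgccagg
CEBPG: gcgcggcgtcTGATGCAACctgccggcaac
SLC1A5: aggaagtggcTGATGCAAGctgtccagggt

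The JDP2 stretch is chr14:75427992-75428021 on the plus strand, with the first letter of the match 16 bases before the start, in a region where GENCODE 29 places no exon of JDP2. That of CEBPG, chr19:33374061-33374090 on the plus strand, begins its match 42 bases before the start and also lies outside the exons of its gene. The match of ASNS, in chr7:97872457-97872486 on the minus strand, begins 68 bases before the RefSeq start, and the stretch overlaps exons of 4 other ASNS transcripts. The CHAC1 stretch, chr15:40953251-40953280 on the plus strand, holds the letters on the opposite strand 210 bases before the start and overlaps exons of 2 CHAC1 transcripts. In SLC1A5, chr19:46784892-46784921 on the minus strand, the match begins 97 bases before the start and the stretch overlaps an exon of 1 transcript. JDP2 and CEBPG share the same 9 letters, and CHAC1 holds them on the opposite strand. Of these genes, JDP2 and CHAC1 fell under si-circ235-2, whereas CEBPG was not called. The 5 genes with printed letters therefore differed in their response: JDP2 and CHAC1 were called lower under si-circ235-2, ASNS was called higher, and CEBPG and SLC1A5 were not called.

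Among the 7 feedback and signalling genes, CHAC1 and EIF4EBP1 fell under si-circ235-2, VLDLR rose, and CHAC1 also fell under si-circ235-1. CHAC1, which degrades glutathione and is a sensitive target of the ATF4 pathway, was at 42.0 and 28.4 CPM in NC, 16.6 and 14.3 CPM in si-circ235-1, and 15.6 and 12.5 CPM in si-circ235-2. All 4 siRNA libraries were below both NC libraries, and the siRNAs overlapped. CHAC1 reached 44% of its NC level under si-circ235-1 (log2 fold change -1.18 ± 0.26, edgeR adjusted p = 0.0277) and 40% under si-circ235-2 (-1.32 ± 0.26, edgeR adjusted p = 0.00474). Between the siRNAs the value was -0.14 ± 0.26 (edgeR adjusted p = 0.693). The fall under si-circ235-2 was not called without NC replicate 1 (-1.02, edgeR adjusted p = 0.066), and held under the other 12 alternatives. The fall under si-circ235-1 was not called without any 1 of the 4 libraries compared, with values of -1.40 to -0.88 and edgeR adjusted p of 0.0522 to 0.229. Under the length and GC correction both were still called, at -0.88 (edgeR adjusted p = 0.0112) and -0.63 (0.0221).

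EIF4EBP1, which encodes the translation repressor 4E-BP1, ranked second of the list in NC by level per kilobase of its merged annotated exons. It was at 396 and 190 CPM in NC, 130 and 139 CPM in si-circ235-1, and 92.2 and 73.3 CPM in si-circ235-2. The conditions did not overlap, but the NC libraries were further from each other than NC replicate 2 was from si-circ235-1. The fall to 28.2% under si-circ235-2 (log2 fold change -1.82 ± 0.30, edgeR adjusted p = 0.0029) was called under all 13 alternatives, and the length and GC correction left -0.79 (edgeR adjusted p = 0.0112). For si-circ235-1 the value of -1.12 ± 0.29 fell just outside the threshold (edgeR adjusted p = 0.0504). It was called by DESeq2 (adjusted p = 0.00891), without TMM factors (edgeR adjusted p = 0.0297), with every counted gene kept (3.6e-05) and in the 2 conditions alone (0.00346). The length and GC correction also called it (-0.84, edgeR adjusted p = 0.015). Without NC replicate 2 the value was -1.52. Between the siRNAs EIF4EBP1 was at -0.71 (edgeR adjusted p = 0.0781, and 0.0477 with DESeq2), and at 0.05 (0.846) under the correction.

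VLDLR, a lipoprotein receptor induced by ATF4, was at only 2.36 and 2.14 CPM in NC, 4.27 and 5.36 CPM in si-circ235-1, and 5.13 and 3.63 CPM in si-circ235-2. Both siRNAs were above both NC libraries and overlapped with each other. The log2 fold changes were similar, 1.10 ± 0.33 (edgeR adjusted p = 0.0741) for si-circ235-1 and 0.96 ± 0.33 (edgeR adjusted p = 0.0483) for si-circ235-2, and the difference between the siRNAs itself was not called (-0.14 ± 0.31, edgeR adjusted p = 0.744). That call was lost under 10 of the 13 alternatives, among them DESeq2 (adjusted p = 0.0808), and the removal of either NC library (edgeR adjusted p = 0.169 and 0.147), of si-circ235-2 replicate 1 (0.69, 0.275), or of either si-circ235-1 library (0.0539 and 0.055). Under the length and GC correction it was 0.32 (edgeR adjusted p = 0.541).

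PPP1R15A and STC2 were called between the siRNAs and not against NC. PPP1R15A encodes GADD34, which directs the phosphatase that restores eIF2, and was at 97.5 and 74.4 CPM in NC, 106 and 85.9 CPM in si-circ235-1, and 69.3 and 61.0 CPM in si-circ235-2. NC overlapped with si-circ235-1, and si-circ235-2 was below both. The difference between the siRNAs (log2 fold change -0.56 ± 0.20, edgeR adjusted p = 0.0486) was lost without any 1 of the 4 libraries compared (-0.70 to -0.40, edgeR adjusted p of 0.0702 to 0.236) and without TMM factors (-0.22, 0.371). STC2, a secreted glycoprotein, was at 150 and 158 CPM in NC, 115 and 78.0 CPM in si-circ235-1, and 175 and 166 CPM in si-circ235-2. It was lowest in si-circ235-1 and differed between the siRNAs (0.82 ± 0.21, edgeR adjusted p = 0.0105), except without si-circ235-1 replicate 2 (0.56, 0.105) and under the length and GC correction (0.24, 0.215). Against NC, STC2 under si-circ235-1 was at -0.68 ± 0.21 (edgeR adjusted p = 0.0773), and was called by DESeq2 (adjusted p = 0.0449), with every counted gene kept (edgeR adjusted p = 0.031), in the 2 conditions alone (0.0485) and under the length and GC correction (-0.58, 0.0348). That correction also called PPP1R15A higher under si-circ235-1 (0.46, edgeR adjusted p = 0.0447).

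TRIB3, the pseudokinase that binds ATF4 and limits its activity, was at 272 and 243 CPM in NC, 370 and 314 CPM in si-circ235-1, and 349 and 286 CPM in si-circ235-2. All siRNA libraries were above NC, and the log2 fold changes of 0.41 ± 0.20 (edgeR adjusted p = 0.222) and 0.30 ± 0.20 (edgeR adjusted p = 0.265) were not called. Most members not called under si-circ235-1 were likewise separated from NC, so with 2 libraries per condition separation alone says little. Under the length and GC correction the TRIB3 values became 0.73 (edgeR adjusted p = 0.00831) and 0.76 (0.00483), both called, and without TMM factors the second was 0.56 (0.0343). SESN2, which signals amino acid shortage to mTORC1, had values of 0.53 and 0.43, not called, and 0.84 (edgeR adjusted p = 0.0101) and 0.59 (0.0198) under that correction.

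**Figure D3:**
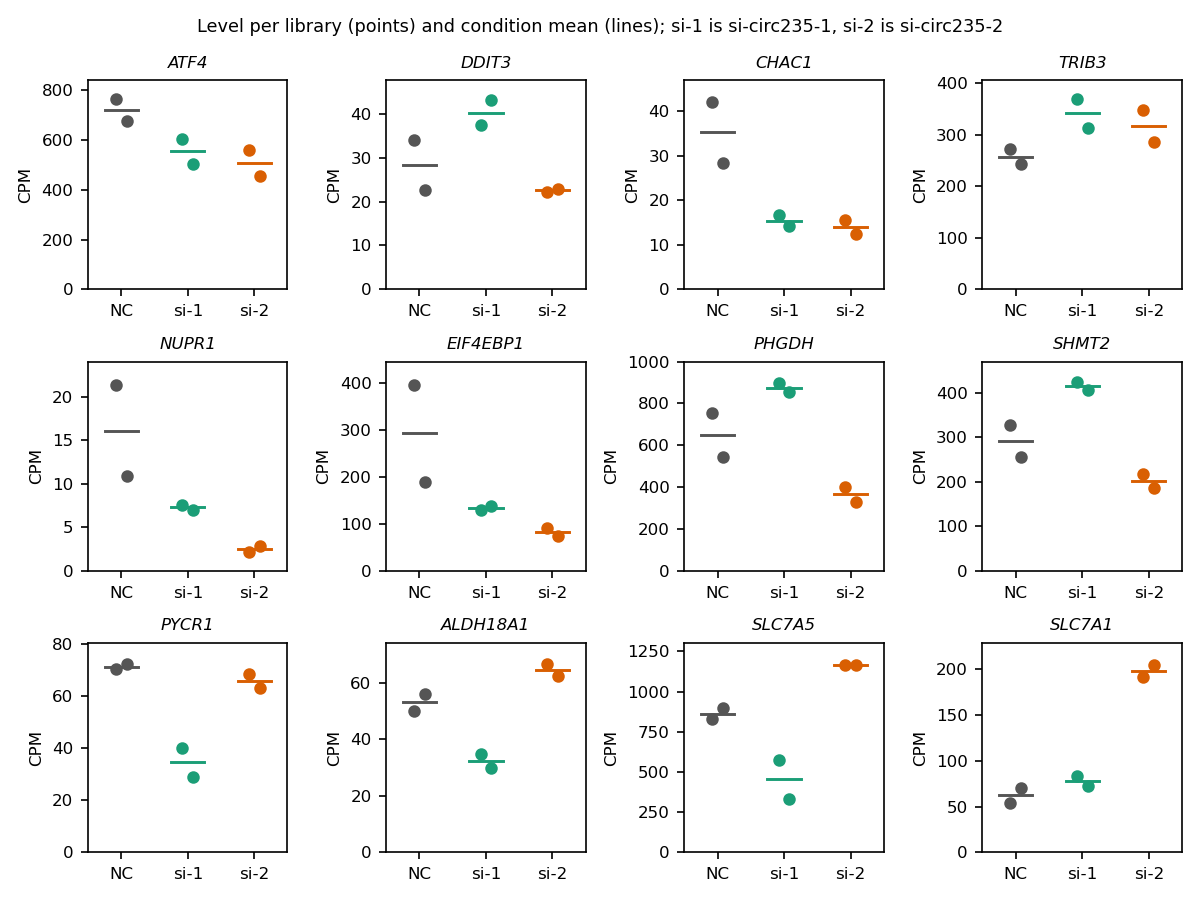
CPM after TMM scaling of 12 genes in each library (points) with the mean of each condition (lines); every axis starts at 0 and has its own scale. CHAC1 and EIF4EBP1 are below NC in all 4 siRNA libraries, PYCR1 and ALDH18A1 are lowest in si-circ235-1, PHGDH and SHMT2 are highest in si-circ235-1 and lowest in si-circ235-2, and SLC7A1 is highest in si-circ235-2.

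Between the siRNAs, 3 of the 11 synthesis genes were higher under si-circ235-2 and 3 lower, where 21.1% of all genes were called higher and 18.6% lower. In the serine and one-carbon branch, PHGDH, the first enzyme of serine synthesis, was at 753 and 542 CPM in NC, 898 and 854 CPM in si-circ235-1, and 401 and 330 CPM in si-circ235-2. PHGDH is encoded on chromosome 1 (119648411 to 119744226, plus strand). Its si-circ235-1 libraries were above NC and its si-circ235-2 libraries below NC. PHGDH fell under si-circ235-2 to 56.5% of NC (log2 fold change -0.82 ± 0.23, edgeR adjusted p = 0.0196) and to 41.7% of its level under si-circ235-1 (-1.26 ± 0.23, edgeR adjusted p = 0.00203). The difference between the siRNAs held under all 13 alternatives, and the fall against NC was lost without NC replicate 1 (-0.57, edgeR adjusted p = 0.176) or si-circ235-2 replicate 2 (-0.69, 0.108).

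SHMT2, the mitochondrial enzyme that splits serine into glycine and a one-carbon unit, had the same order. It was at 329 and 255 CPM in NC, 424 and 406 CPM in si-circ235-1, and 218 and 186 CPM in si-circ235-2. Relative to NC the log2 fold changes were 0.51 ± 0.20 (edgeR adjusted p = 0.145) and -0.53 ± 0.20 (edgeR adjusted p = 0.0645), neither called. The second was called by DESeq2 (adjusted p = 0.031), with the replicate block (edgeR adjusted p = 0.0372) and under the length and GC correction (-0.49, 0.0384), and the first under that correction (0.80, 0.0116). Between the siRNAs SHMT2 differed 2.06-fold (-1.04 ± 0.20, edgeR adjusted p = 0.00279), which held under all 13 alternatives. PSAT1 and PSPH, which complete serine synthesis after PHGDH, and MTHFD2, the next step of mitochondrial one-carbon metabolism, were called in no comparison. Their log2 fold changes were 0.23, -0.06 and 0.37 under si-circ235-1 and 0.47, 0.12 and 0.27 under si-circ235-2. Of the 3 enzymes of serine synthesis, PHGDH alone was called under si-circ235-2 before the length and GC correction, under which PSAT1 was called higher (0.56, edgeR adjusted p = 0.0207).

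In the proline branch, ALDH18A1 and PYCR1, the enzymes that open and close proline synthesis from glutamate, fell together under si-circ235-1. PYCR1 was at 70.3 and 72.2 CPM in NC, 40.2 and 29 CPM in si-circ235-1, and 68.3 and 63.1 CPM in si-circ235-2. Its fall to 48.5% under si-circ235-1 was called (log2 fold change -1.04 ± 0.20, edgeR adjusted p = 0.019), and under si-circ235-2 the value was -0.12 ± 0.20 (edgeR adjusted p = 0.691). ALDH18A1 was at 50 and 56.2 CPM in NC, 34.7 and 29.9 CPM in si-circ235-1, and 66.8 and 62.4 CPM in si-circ235-2. It fell to 60.8% under si-circ235-1 (-0.72 ± 0.19, edgeR adjusted p = 0.0495), with 0.28 ± 0.19 (edgeR adjusted p = 0.27) under si-circ235-2. The siRNAs differed from each other in both genes, by 0.93 ± 0.20 for PYCR1 (edgeR adjusted p = 0.00509) and by 1.00 ± 0.19 for ALDH18A1 (edgeR adjusted p = 0.00241).

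These proline calls against NC were lost when single libraries were left out. PYCR1 was not called without NC replicate 1 (edgeR adjusted p = 0.0836), NC replicate 2 (0.0913) or si-circ235-1 replicate 2 (-0.82, 0.193). ALDH18A1 was not called without any 1 of the 4 libraries (-0.83 to -0.59, edgeR adjusted p of 0.085 to 0.295), without TMM factors (0.056) or with DESeq2's size factors in edgeR (0.0555). Between the siRNAs, ALDH18A1 was called under all 13 alternatives and PYCR1 under 12, the exception being without si-circ235-1 replicate 2 (0.70, edgeR adjusted p = 0.06).

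GPT2, the mitochondrial transaminase that interconverts alanine and glutamate, was the member that rose under si-circ235-1. It was at 74.2 and 71.6 CPM in NC, 153 and 147 CPM in si-circ235-1, and 106 and 96.3 CPM in si-circ235-2. The 3 conditions did not overlap. GPT2 rose 2.06-fold under si-circ235-1 (log2 fold change 1.04 ± 0.17, edgeR adjusted p = 0.0119), with 0.47 ± 0.17 (edgeR adjusted p = 0.0559, and 0.0409 with DESeq2) under si-circ235-2, and the siRNAs differed (-0.57 ± 0.17, edgeR adjusted p = 0.0223). Without NC replicate 1, NC replicate 2 or si-circ235-1 replicate 2 the rise kept values of 1.07, 1.05 and 1.07 with edgeR adjusted p of 0.0613, 0.0616 and 0.145. The difference between the siRNAs was lost without any 1 of their 4 libraries (-0.64 to -0.50, edgeR adjusted p of 0.0718 to 0.165) and without TMM factors (-0.23, 0.297).

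ASNS, asparagine synthetase and a classic ATF4 target, was the member with the lowest level per kilobase of merged annotated exons. Its 6 libraries held 12 to 51 counts. In CPM it was at 1.05 and 0.917 in NC, 0.839 and 1.06 in si-circ235-1, and 2.60 and 2.44 in si-circ235-2. NC and si-circ235-1 overlapped, and si-circ235-2 was above both. The 2.55-fold rise under si-circ235-2 (log2 fold change 1.35 ± 0.43, edgeR adjusted p = 0.0344) and the difference from si-circ235-1 (1.39 ± 0.43, edgeR adjusted p = 0.0249) were both called. DESeq2 called neither (adjusted p = 0.0777 and 0.0665). Without any 1 of the libraries compared the rise against NC was 1.26 to 1.44 and the difference between the siRNAs 1.24 to 1.57, with edgeR adjusted p of 0.122 to 0.164 and of 0.061 to 0.134. CTH and CBS, the enzymes of transsulfuration, were not called, with log2 fold changes of 0.60 and -0.63 under si-circ235-1 and 0.36 and -0.36 under si-circ235-2. CBS has a near-identical copy, CBSL, which took 830 counts against 2010, so its value is uncertain.

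Of the 7 transporters none was called for si-circ235-1 against NC (1 was at an unadjusted p under 0.05 in edgeR, and DESeq2 called 1). For si-circ235-2, 3 were called, where 15.7% of all genes were called higher and 15.7% lower. SLC7A1, the CAT1 carrier of arginine and other cationic amino acids, had the largest rise of the list. It was at 54.1 and 70.5 CPM in NC, 83.2 and 72.3 CPM in si-circ235-1, and 191 and 204 CPM in si-circ235-2. The si-circ235-2 libraries were far above all others. SLC7A1 rose 3.17-fold (log2 fold change 1.66 ± 0.20, edgeR adjusted p = 0.00179), with 0.32 ± 0.19 (edgeR adjusted p = 0.332) under si-circ235-1, and the siRNAs differed 2.54-fold (1.34 ± 0.19, edgeR adjusted p = 0.000908). Both calls held under all 13 alternatives. Its longest transcript has 7347 bases, and under the length and GC correction the rise was 1.13 (edgeR adjusted p = 0.00334).

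SLC38A1, a sodium-coupled glutamine carrier, was at 200 and 234 CPM in NC, 287 and 296 CPM in si-circ235-1, and 339 and 495 CPM in si-circ235-2. It rose under si-circ235-2 (log2 fold change 0.94 ± 0.22, edgeR adjusted p = 0.00978), with 0.42 ± 0.22 (edgeR adjusted p = 0.254) under si-circ235-1, and the difference between the siRNAs was not called (0.52 ± 0.22, edgeR adjusted p = 0.0823). The rise was lost without NC replicate 1 (0.83, 0.101) or si-circ235-2 replicate 2 (0.64, 0.0918), and was 0.39 (edgeR adjusted p = 0.0455) under the length and GC correction. Its relative SLC38A2 had 0.11 and 0.17 and the glutamine carrier SLC1A5 had -0.04 and -0.03 against NC, none of them called.

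SLC3A2 and SLC7A5 encode the heavy and light chains of the LAT1 transporter of large neutral amino acids, and their mRNAs moved apart. SLC3A2 was at 1039 and 757 CPM in NC, 856 and 836 CPM in si-circ235-1, and 568 and 451 CPM in si-circ235-2. SLC7A5 was at 831 and 895 CPM in NC, 577 and 331 CPM in si-circ235-1, and 1164 CPM in both si-circ235-2 libraries. The heavy chain was thus lowest in si-circ235-2, where the light chain was highest. SLC3A2 fell under si-circ235-2 against NC (log2 fold change -0.82 ± 0.23, edgeR adjusted p = 0.0219) and against si-circ235-1 (-0.73 ± 0.23, edgeR adjusted p = 0.0272). SLC7A5 was higher under si-circ235-2 than under si-circ235-1 (1.36 ± 0.27, edgeR adjusted p = 0.00292), a call that held under all 13 alternatives. Against NC its values were -0.93 ± 0.26 for si-circ235-1 (edgeR adjusted p = 0.0631, and called by DESeq2 with adjusted p = 0.0104) and 0.43 ± 0.26 for si-circ235-2 (edgeR adjusted p = 0.233). The former was also called with every counted gene kept (edgeR adjusted p = 0.00306), in the 2 conditions alone (0.0158) and without TMM factors (0.0498). Under the length and GC correction it was -0.64 (edgeR adjusted p = 0.0549).

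The fall of SLC3A2 against NC was lost without NC replicate 1 (-0.58, edgeR adjusted p = 0.189), with si-circ235-2 replicate 2 left out (-0.66, 0.126) and under the length and GC correction (-0.46, 0.0526). Its difference between the siRNAs was lost without si-circ235-1 replicate 1 (-0.72, edgeR adjusted p = 0.105), si-circ235-1 replicate 2 (-0.76, 0.107), si-circ235-2 replicate 2 (-0.57, 0.161) or TMM factors (-0.40, 0.0959). SLC7A11, the light chain of the cystine carrier that shares SLC3A2 as heavy chain, differed widely between its si-circ235-2 libraries. It was at 23.1 and 22.5 CPM in NC, 40.8 and 41.9 CPM in si-circ235-1, and 8.08 and 28.8 CPM in si-circ235-2, with NC lying between the 2 si-circ235-2 libraries. It was called in no comparison (0.86, -0.30 and -1.16, the last with edgeR adjusted p = 0.0504). The difference between the siRNAs was called with the replicate block (-1.31, edgeR adjusted p = 0.0397), with DESeq2's size factors in edgeR (-1.20, 0.0416) and under the length and GC correction (-1.25, 0.00527), and not by DESeq2 (adjusted p = 0.164). It was -2.35 (edgeR adjusted p = 3.89e-06) without si-circ235-2 replicate 2 but -0.52 (0.139) with replicate 1 of that siRNA left out, and the value of si-circ235-2 against NC was -1.49 (0.000879) in the former case and 0.34 (0.373) in the latter. In these fits the remaining si-circ235-2 library was assumed to vary like the other conditions. SLC7A11 is given library by library because of this spread, a choice made after its values were seen.

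By level per kilobase of exon in NC, with all annotated exons of a gene merged, ATF4 was the highest member. It was at 285 CPM per kilobase and the percentile 98.9 of all genes tested. EIF4EBP1 (273), SLC7A5 (182) and SLC3A2 (173) followed on the same scale. The NC libraries of EIF4EBP1 spanned both sides of its neighbours in this order, so ATF4 and EIF4EBP1 were not separated. VLDLR (0.241) and ASNS (0.221) closed the order, at percentiles 8.0 and 7.3. The 32 members thus covered nearly the whole range of expressed genes, and the 2 lowest were also those whose rises under si-circ235-2 were lost most often. The order depends on the length used. Merged exons span 2514 bases in ATF4 and 5178 in SLC3A2, and their longest transcripts 2019 and 2222. By longest transcript SLC3A2 would lie above ATF4, and ASNS above VLDLR.

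Upstream of ATF4, 17 genes of eIF2 kinases and eIF2 machinery were tested. Under si-circ235-1, 1 of them was called: DELE1, which carries mitochondrial stress to the kinase HRI, was at 46.6 and 51.9 CPM in NC and at 25.5 and 22.1 CPM in si-circ235-1 (log2 fold change -1.05 ± 0.20, edgeR adjusted p = 0.0175). Under si-circ235-2, 4 were higher and 3 lower. Over all genes tested, 15.7% were called higher and 15.7% lower there, and 2.24% and 3.64% under si-circ235-1. These shares hold for the lists below too. EIF2AK4, which encodes the amino acid sensing kinase GCN2, rose from 35.3 and 45.0 CPM to 83.4 and 83.5 CPM (1.05 ± 0.19, edgeR adjusted p = 0.00387). PPP1R15B, the constitutive partner of the eIF2 phosphatase, rose by a like amount (1.06 ± 0.20, edgeR adjusted p = 0.00459). EIF2B4 and EIF2S2, subunits of the exchange factor eIF2B and of eIF2, fell (-0.94 ± 0.22 and -0.59 ± 0.19, edgeR adjusted p = 0.00963 and 0.0415).

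**Figure D4:**
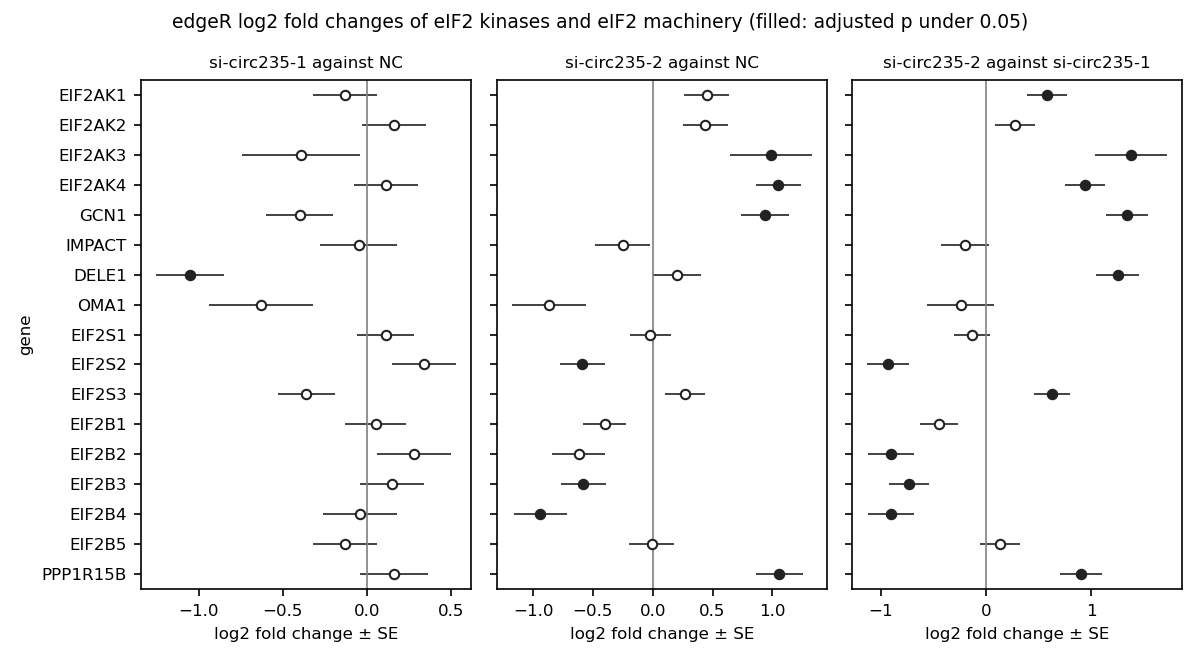
Log2 fold change of 17 eIF2 kinase and eIF2 machinery genes, with standard errors as bars, in the 3 comparisons (edgeR, 2 libraries per condition); filled points are called at an adjusted p under 0.05. One point is filled for si-circ235-1 against NC, 7 for si-circ235-2 against NC and 11 between the siRNAs.

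Between the siRNAs, 7 of the 17 were higher under si-circ235-2 and 4 lower, where 21.1% of all genes were called higher and 18.6% lower. The largest rises were those of EIF2AK3, the endoplasmic reticulum kinase PERK (1.38 ± 0.34, edgeR adjusted p = 0.00939), and GCN1, the activator of GCN2 (1.34 ± 0.20, edgeR adjusted p = 0.000976). EIF2S2 (-0.93 ± 0.20, edgeR adjusted p = 0.00422) and EIF2B2 (-0.90 ± 0.22, edgeR adjusted p = 0.00907) were the largest falls. The median log2 fold change of the list was -0.04, -0.01 and 0.13 in the 3 comparisons, against -0.03, -0.00 and 0.04 for all genes. The calls against NC depended on NC replicate 1: without it edgeR called 0 of 17 under si-circ235-2, with 6 at an unadjusted p under 0.05, and it called 4 without NC replicate 2 or either si-circ235-1 library. Between the siRNAs the 11 calls became 6 without si-circ235-1 replicate 2, and 7 were left when si-circ235-2 replicate 2 was dropped. Under the length and GC correction the list had 3 higher and 6 lower under si-circ235-2 against NC. Of all 14386 genes so corrected, 1613 were called higher and 2111 lower in that comparison.

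Among 18 other targets of ATF4, 16 were tested, since FGF21 and SLC7A3 were near 0 or at 0. SLC6A9, a glycine transporter, fell under si-circ235-1 from 22.2 and 19.6 CPM to 6.93 and 6.75 CPM (log2 fold change -1.61 ± 0.24, edgeR adjusted p = 0.0087), and was the 1 call of that list. Under si-circ235-2, 5 were higher and 2 lower. Of all genes, 15.7% were called higher and 15.7% lower in that comparison, and 21.1% and 18.6% between the siRNAs. NIBAN1, a stress-induced regulator of translation, rose from 44.1 and 56.6 CPM to 142 and 151 CPM (1.54 ± 0.19, edgeR adjusted p = 0.00179), and ALDH1L2, a mitochondrial folate enzyme, rose by 1.15 ± 0.23 (edgeR adjusted p = 0.00555). BBC3, the cell death gene PUMA, and GDF15, a secreted stress cytokine, fell (-0.93 ± 0.27 and -0.68 ± 0.22, edgeR adjusted p = 0.0249 and 0.0378). Without NC replicate 1 the 7 calls became 1, and under the length and GC correction they became 2. Between the siRNAs 4 were higher and 1 lower, and the 5 calls became 3 without si-circ235-1 replicate 1.

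The wider amino acid and one-carbon genes gave 22 tested of 24. BCAT2, the mitochondrial branched-chain transaminase, was the 1 called gene under si-circ235-1 and fell under both siRNAs, from 188 and 127 CPM in NC to 58.1 and 66.0 CPM in si-circ235-1 and 71.2 and 57.7 CPM in si-circ235-2 (log2 fold changes -1.34 ± 0.22 and -1.29 ± 0.22, edgeR adjusted p = 0.0126 and 0.00332). Under si-circ235-2, 3 were higher and 3 lower, and between the siRNAs 3 were higher and 1 lower. Of all genes, 15.7% were called higher and 15.7% lower under si-circ235-2, and 21.1% and 18.6% between the siRNAs. MAT2A, which makes S-adenosylmethionine, and SLC36A1, a lysosomal amino acid exporter, rose under si-circ235-2 by 1.13 ± 0.22 and 1.44 ± 0.26 (edgeR adjusted p = 0.00484 and 0.00362). Without NC replicate 1 the 6 calls under si-circ235-2 became 1, and without si-circ235-2 replicate 2 they became 3. The 4 calls between the siRNAs became 2 without si-circ235-1 replicate 2.

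Cytosolic aminoacyl-tRNA synthetases, which ATF4 also controls, moved in both directions. Of 11 tested, SARS1 rose under si-circ235-1 from 509 and 452 CPM to 941 and 917 CPM (log2 fold change 0.95 ± 0.21, edgeR adjusted p = 0.0284) and AARS1 fell from 308 and 291 CPM to 165 and 134 CPM, or to 49.9% of NC (edgeR adjusted p = 0.0175). Under si-circ235-2 the 1 call was IARS1, which rose by 0.91 ± 0.20 (edgeR adjusted p = 0.00726). Between the siRNAs 3 were higher and 1 lower, with AARS1 at 1.22 ± 0.19 and SARS1 at -1.25 ± 0.21 (edgeR adjusted p = 0.00116 and 0.0015). Of all genes, 15.7% were called higher and 15.7% lower under si-circ235-2, and 21.1% and 18.6% between the siRNAs. Neither call under si-circ235-1 held without NC replicate 1, NC replicate 2 or si-circ235-1 replicate 2. Each of these fits leaves 1 library in a condition and called far fewer of all genes, so the loss is not particular to the synthetases.

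Stress branches that also feed eIF2 were read from 3 further lists. Of 12 tested interferon and double-stranded RNA response genes, edgeR and DESeq2 called 0 under si-circ235-1 (0 at an unadjusted p under 0.05 in edgeR), and under si-circ235-2 edgeR called 2 higher and 2 lower, with OAS3 at 1.32 ± 0.18 and IFI6 at -2.19 ± 0.28 (edgeR adjusted p = 0.00179 for both,). Of 6 mitochondrial stress genes, LONP1, a matrix protease, rose under si-circ235-1 (0.81 ± 0.21, edgeR adjusted p = 0.0472), and 1 was higher and 2 lower under si-circ235-2, led by the fall of CLPP (-1.21 ± 0.22, edgeR adjusted p = 0.00377). Under the length and GC correction edgeR called 0 of these 6 under si-circ235-2, with 2 at an unadjusted p under 0.05. Of 8 endoplasmic reticulum genes, called the chaperone list although HERPUD1 and XBP1 are not chaperones, HERPUD1 rose under si-circ235-1 (0.79 ± 0.19, edgeR adjusted p = 0.0377). Under si-circ235-2 SDF2L1 and HSP90B1 fell (-1.25 ± 0.27 and -0.60 ± 0.20, edgeR adjusted p = 0.00726 and 0.0449). The chaperone list did not fall as a whole: under si-circ235-2, 5 genes lay above 0 and 3 below, with a median of 0.12 and none called higher. Between the siRNAs 2 interferon genes were higher and 3 lower, and 1 mitochondrial stress gene was higher and 3 lower. In the chaperone list 4 genes were lower and none higher. Of all genes, 15.7% were called higher and 15.7% lower under si-circ235-2, and 21.1% and 18.6% between the siRNAs. With each library left out in turn, edgeR called 2 to 5 interferon, 1 to 3 mitochondrial stress and 0 to 2 chaperone genes under si-circ235-2 against NC, in each list fewest without NC replicate 1 (for the chaperones 0 called and 2 at an unadjusted p under 0.05).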

How the data were processed

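Gene-level mRNA counts were measured in 6 libraries of T24 cells, 2 per condition, which were grouped by their labels (control siRNA, siRNA 1 and siRNA 2, here NC, si-circ235-1 and si-circ235-2). RNA was extracted with RNAiso Plus and enriched with oligo dT beads. The authors deposited raw read counts for every gene, in whole numbers and not normalized. The submitters' processing notes name FastQC, cutadapt, STAR and hg38. The counter, its annotation and its use of strand are not stated there or elsewhere in the sources used here. Reads of overlapping genes or near-identical copies may therefore be shared between them.

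edgeR 4.0.16 (under R 4.3.3) was run with filterByExpr on the conditions, TMM factors, 1 mean per condition over all 6 libraries, the quasi-likelihood test and Benjamini-Hochberg adjustment over 14415 genes at a threshold of 0.05. Levels are CPM after TMM scaling, and a standard error is the log2 fold change divided by the square root of F. Coordinates, lengths and GC content came from GENCODE 29 (GRCh38), in which 99.5% of the identifiers were found. Promoter windows came from RefSeq. The fit was also run on simulated counts with few genes changed, in si-circ235-2 alone and without a length trend, unlike these data. That run does not bear on the scaling or the calls given here. Between replicates chi-square per degree of freedom was 23.5 to 35.4, so each library counted as 1 sample, and 2 libraries per condition limit precision more than depth does.

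The members and lists were chosen with earlier results of these data known. Values in every library are given for members called in any comparison and for ATF4, DDIT3, ASNS, CHAC1 and TRIB3, and of every other list at most the 2 largest called rises and 2 largest called falls per comparison are named. SLC7A11, single genes of the marker lists and CCNY were named outside this rule. Alternatives were DESeq2 1.42.0, no TMM factors, DESeq2's size factors in edgeR, no filter on low counts, fits of 2 conditions, a replicate block, a correction for length and GC (per library, by splines of 5 degrees of freedom), and each library left out.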

Additional observations from a re-analysis of the deposited data

How the results depend on the processing

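No value of a member changed sign while called. For si-circ235-1 against NC, members called higher numbered 3 with every counted gene kept, 7 under the length and GC correction and 3 in the fit of 2 conditions alone, against 1, and those called lower numbered 8 with DESeq2, 7 with every counted gene kept, 5 under the correction and 8 in the 2 conditions alone, against 3. All genes called in that comparison numbered 847, and 1519 with DESeq2, 1678 with every counted gene kept, 1967 under the correction and 1642 in the 2 conditions alone. For si-circ235-2 against NC, 9 were called higher without TMM factors, against 4. Between the siRNAs 4 were called lower without TMM factors, against 8. With each library left out in turn, the members called were 0 to 3 higher and 0 to 7 lower for si-circ235-1, 1 to 3 higher and 2 to 6 lower for si-circ235-2, and 3 to 6 higher and 4 to 10 lower between the siRNAs. The cause of these changes was not tested, nor was the part of the smaller number of libraries in the last set.

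The replicate numbers are shared by the conditions, and whether they pair the libraries is not settled by the values below. The difference between replicate 1 and replicate 2 correlated across genes at -0.094 for NC with si-circ235-1, 0.149 for NC with si-circ235-2 and 0.139 for the siRNAs. With the replicate block the members called were 1 higher and 3 lower for si-circ235-1, 4 higher and 8 lower for si-circ235-2, and 7 higher and 9 lower between the siRNAs. All genes called then numbered 937, 4750 and 6043 in these comparisons, against 847, 4530 and 5725 without the block. ASNS had the fewest counts of the members, 12 to 51 per library.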
